A study of Mus musculus with 9 samples.

Results

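The genes of the gastric proton pump and of the ion channels and exchangers that serve it in the acid-secreting parietal cell were followed across 3 adjoining zones of the mouse stomach. Of 10 genes listed by name (Atp4a, Atp4b, Kcne2, Kcnq1, Kcnj15, Kcnj16, Slc26a7, Slc26a9, Slc4a2 and Clic6), 9 were represented by a probe set with that symbol alone, out of 18193 genes represented on the array. They had 14 probe sets, and all 14 passed the filter on low signals. Slc26a9 was not analysed here. The zones were the squamocolumnar junction, where squamous and glandular lining meet, the non-glandular forestomach, lined by squamous epithelium, and the glandular corpus. All samples came from healthy, untreated female C57Bl/6 mice aged 3 months. Adjacent stripes, 600 to 800 µm wide, were taken from 9 mice in 3 series. A series pooled 3 mice and gave 1 array per zone, which makes 3 arrays a zone and ties the arrays of a series to the same animals.

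Parietal cells lie in the glands of the corpus. Their H+/K+-ATPase, made of the catalytic subunit Atp4a and the glycoprotein subunit Atp4b, moves protons into the gland lumen in exchange for potassium. Potassium returns to the lumen through apical channels, chloride leaves with the acid, and bicarbonate left in the cell is exchanged for chloride at the basolateral membrane.

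Only short stretches upstream of some of these genes can be shown. The RefSeq promoter table (GRCm38.p6) held 5 of the 9 genes, with 10 annotated starts, and the 250 bases before each start were searched on both strands for the nuclear receptor element AGGTCA, the GATA core AGATAA and the TATA box TATAAA. No match overlapped another. The receptor element is part of the motif of estrogen-related receptors, one of which, Esrrg, is made in parietal cells, and GATA factors have been described at pump genes of the rat. A match to any of these motifs was present in 3 of 10 windows. The share of all windows with any of them was not counted, only that of each motif alone. The 3 of 10 are therefore not shown to be more than usual. Of all 32851 windows of this length in the table, 4607 held the receptor element, 3281 (9.99%) the GATA core and 4063 (12.4%) the TATA box. In Kcnj16, 1 start had the receptor element 190 to 185 bases (reverse strand) and 164 to 159 bases before it, and another had the GATA core 187 to 182 and the TATA box 133 to 128 bases before it. In Slc4a2 the receptor element lay 7 to 2 bases before 1 start. Shown are windows of a pump gene, of channel genes that were lower in the junction, and of both Kcnj16 starts with a match, all on the plus strand, with matches in capitals. A window without capitals only lacks these letters.
Atp4a, chr7:30711959-30712208: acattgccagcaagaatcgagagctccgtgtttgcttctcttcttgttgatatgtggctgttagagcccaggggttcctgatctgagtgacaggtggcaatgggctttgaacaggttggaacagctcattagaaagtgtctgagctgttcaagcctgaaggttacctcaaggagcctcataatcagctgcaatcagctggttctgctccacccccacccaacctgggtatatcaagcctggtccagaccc
Kcne2, chr16:92292139-92292388: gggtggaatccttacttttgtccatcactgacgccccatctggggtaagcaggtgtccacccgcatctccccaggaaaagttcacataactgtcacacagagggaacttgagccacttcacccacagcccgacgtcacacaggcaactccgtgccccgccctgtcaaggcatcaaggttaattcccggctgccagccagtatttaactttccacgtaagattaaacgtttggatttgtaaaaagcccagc
Kcnj15, chr16:95257308-95257557: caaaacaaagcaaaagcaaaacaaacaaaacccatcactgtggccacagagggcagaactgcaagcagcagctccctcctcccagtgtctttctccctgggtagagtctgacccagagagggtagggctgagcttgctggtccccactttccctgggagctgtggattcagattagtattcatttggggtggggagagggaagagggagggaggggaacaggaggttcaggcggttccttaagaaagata
Kcnj16, chr11:110967783-110968032: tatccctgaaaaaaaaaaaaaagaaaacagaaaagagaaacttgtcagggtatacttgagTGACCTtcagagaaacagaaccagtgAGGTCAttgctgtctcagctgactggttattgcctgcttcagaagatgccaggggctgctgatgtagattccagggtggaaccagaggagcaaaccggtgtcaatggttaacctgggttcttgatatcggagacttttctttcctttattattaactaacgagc
Kcnj16, chr11:111019335-111019584: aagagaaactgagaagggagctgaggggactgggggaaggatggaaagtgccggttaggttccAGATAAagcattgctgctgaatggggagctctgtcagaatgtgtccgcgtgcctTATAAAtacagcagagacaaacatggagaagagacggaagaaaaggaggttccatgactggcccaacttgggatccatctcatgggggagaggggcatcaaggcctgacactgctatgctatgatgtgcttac

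The zones matched their labels by squamous and chief cell markers, but mucous cell markers were also high on forestomach arrays 2 and 3. The 8 squamous markers, such as Krt5 and Krt14, had a median signal of 60.7% to 85.6% of that in the forestomach on the junction arrays and of 1.31% to 2.37% on the corpus arrays. The 5 chief cell markers, such as Pgc, had 68.5% to 99.7% of the corpus signal on junction arrays. On the forestomach arrays 1, 2 and 3 they had 0.206%, 1.5% and 2.97%. For 5 mucous cell markers these forestomach shares were 1.14%, 39.9% and 74.5%, and for 4 endocrine cell markers 1.46%, 1.38% and 3.88%. Smooth muscle markers were measured in every zone. In the forestomach 5 of 5 were called higher than in the corpus, beside 29.3% of all genes. Between junction and corpus 0 of 5 passed the threshold, beside 11.6% of all genes called higher and 10.7% called lower. Median array signals ranged from 47.9 to 57.1, and precision is limited by having 3 arrays a zone. Fewer parietal cells in a stripe and less of a transcript in each parietal cell cannot be told apart in such bulk samples.

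The junction was first set against the corpus. Here 7 of the 9 genes, all channels, exchangers and Clic6, were lower in the junction, 0 were higher, and the 2 pump subunits did not pass the threshold. The background for these calls was 10.7% of 13637 genes lower and 11.6% higher. The median log2 difference was -0.91 over the 9 genes and -0.05 over all genes. Junction and corpus arrays did not overlap for the same 7 genes, and for 43.8% of all genes in either direction, so lack of overlap alone is common here. Beside this, 8 of 8 squamous markers were higher in the junction (summed signal 50087.9 to 67010.2, against 1146.6 to 2382.7 in the corpus). Of 5 chief cell markers 1 was lower (summed signal 37008.2 to 42839, against 35594.2 to 49606.5), of 5 mucous cell markers 0 (60651.9 to 72725.3, against 50479.4 to 78395.7), and of 4 endocrine cell markers 3 (9588.4 to 12443.9, against 14192.3 to 17036.5). The lower chief cell marker was Bhlha15 (log2 difference -1.48 ± 0.29, signal 680.6 to 985.1 in the corpus). The chief and mucous cell sums came mainly from brighter markers, such as Pgc (9629.5 to 14109.4) and Gkn1 (13973 to 22793.5 in the corpus). Junction shares by brightness are given below, and the part of brightness in these sums was not tested. The part of the tissue mix in the values of the pump and channel genes was not tested. Without series 2 the call held for 2 of the 9 (Kcnj15 and Slc26a7) and without series 3 for 4.

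The pump subunits had signals in the junction close to those in the corpus. The signal of Atp4a was 10351.8, 9754.1 and 10999.9 in the junction, against 13487.5, 12977.6 and 9336.9 in the corpus. The groups overlapped, because corpus array 3 lay below the lowest junction array. The difference was -0.19 ± 0.16 on the log2 scale (SE, n = 3 each, 95% interval -0.57 to 0.20, limma adjusted p = 0.441). Atp4b read 13947.7, 11648.3 and 12801.8 in the junction and 17339.2, 16712.5 and 11840.9 in the corpus, again with the third corpus array low. Its log2 difference was -0.24 ± 0.17 (95% interval -0.65 to 0.17, adjusted p = 0.347). With intervals reaching -0.57 and -0.65, equality with the corpus is not shown. After quantile normalization both subunits passed as lower in the junction (log2 difference -0.36, adjusted p = 0.0342 for Atp4a, and -0.44, adjusted p = 0.0278 for Atp4b). Without corpus array 3 the differences were -0.35 (adjusted p = 0.0902) and -0.42 (adjusted p = 0.0784).

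The potassium channel genes were lower in the junction. Kcnq1 encodes the pore of the apical potassium channel and Kcne2 its accessory subunit, both needed for acid secretion in mice. Kcne2 had 1843.1, 981.8 and 1181.4 in the junction and 3551.9, 2888.2 and 2991.9 in the corpus. Every junction array lay below every corpus array. The fall was 2.42-fold (log2 difference -1.27 ± 0.24, adjusted p = 0.0123). Without series 2 or series 3 the adjusted p of Kcne2 was 0.0874 and 0.108 (range over its alternatives 0.00257 to 0.108). Kcnq1 had 888.4, 731.4 and 599.8 in the junction and 1469.8, 1347.5 and 1325.7 in the corpus. These groups did not overlap either, and the fall was 1.88-fold (log2 difference -0.91 ± 0.15, adjusted p = 0.00925). Its call was lost without series 2 or 3 (adjusted p = 0.10 and 0.0606) and with 1 variance for all 9 arrays (0.0809), with a range from 2.31e-04 to 0.10 over its alternatives.

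Kcnj15 and Kcnj16 encode subunits of inward rectifier potassium channels. Kcnj15 had 1494.6, 1270.1 and 1141.1 in the junction, against 2907.3, 3059.3 and 2909.3 in the corpus. The corpus arrays lay within a narrow band and all junction arrays lay far below it (2.28-fold lower, log2 difference -1.19 ± 0.12, adjusted p = 0.00132). Its other 2 probe sets had log2 differences of -1.29 and -1.23, both called when all probe sets were tested. Kcnj16 had 784.6, 705.2 and 597.6 in the junction and 1354.2, 1627.5 and 1440.8 in the corpus (2.11-fold lower, log2 difference -1.08 ± 0.13, adjusted p = 0.00296). Its second probe set gave -1.23. The call of Kcnj16 was narrowly lost without series 2 (adjusted p = 0.0555, range 1.93e-05 to 0.0555).

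The anion exchanger genes followed. Slc26a7, a chloride and bicarbonate exchanger of parietal cells, had 412.5, 315.3 and 330.9 in the junction and 858.9, 837 and 883.4 in the corpus. The fall was 2.41-fold without overlap (log2 difference -1.27 ± 0.12, adjusted p = 0.00105), and a dimmer probe set gave -1.14. Slc4a2 encodes the basolateral exchanger that lets bicarbonate out and chloride in. It had 1678.8, 1487.1 and 1567.7 in the junction, against 2945, 2985.5 and 2502.7 in the corpus (1.77-fold lower, log2 difference -0.83 ± 0.11, adjusted p = 0.00396, and 0.0692 without series 2). Clic6, a member of the chloride intracellular channel family first described in secretory cells of the rabbit, was the least firm of the 7. Its brighter probe set had 7692.2, 6280.4 and 6187.8 in the junction and 10576.6, 10861.2 and 8226.8 in the corpus. The groups did not overlap (log2 difference -0.55 ± 0.15, adjusted p = 0.0436), but 12 of 20 alternatives ended the call, with adjusted p from 0.00514 to 0.692. The other probe set of Clic6 had a log2 difference of -0.81 (adjusted p = 0.0102 among all probe sets).

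**Figure D1:**
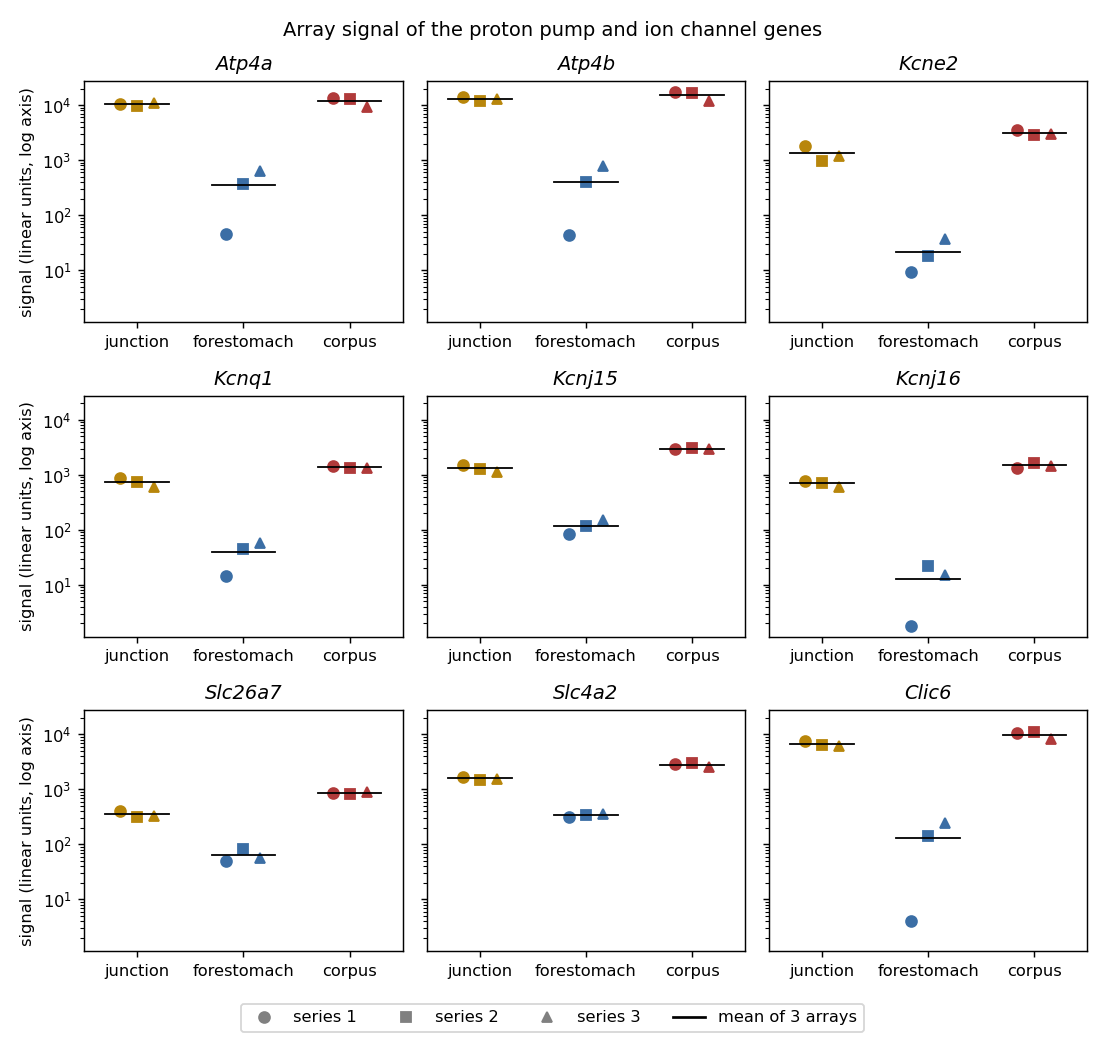
Array signal (linear units on a log axis) of the 9 genes in junction, forestomach and corpus. Each point is 1 array, its shape gives the series, and the bar is the mean of 3 arrays; of the 9, Atp4a and Atp4b have overlapping junction and corpus arrays (43.8% of all genes tested do not overlap).

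The junction signal was also taken as a share of the corpus signal of the same mice, as a description without a test. The median over the 9 genes was 57.9%, 49.8% and 45.2% in series 1, 2 and 3 (mean 51.0% ± 6.43, SD). The share was 89.9% ± 24.2 (SD, n = 3) for Atp4a and 86.1% ± 19.8 for Atp4b. The wide spread came with series 3, where both subunits exceeded the corpus (117.8% and 108.1%), while series 1 gave 76.8% and 80.4% and series 2 gave 75.2% and 69.7%. Clic6 had 68.6% ± 9.41, Slc4a2 56.5% ± 6.43 and Kcnq1 53.3% ± 7.64. The lowest shares were those of Kcnj16 (47.6% ± 9.02), Kcnj15 (44.0% ± 6.48), Kcne2 (41.8% ± 9.17) and Slc26a7 (41.1% ± 6.04). With the brighter probe set of Clic6, used here, the step between Clic6 and Slc4a2 was larger than the SD of either gene. The step between Atp4b and Clic6 was within the SD of Atp4b. The other probe set of Clic6 had 57.3% ± 6.56, level with Slc4a2, so the place of Clic6 in this order depends on the probe set. All other neighbours in this order differed by less than their SDs.

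**Figure D2:**
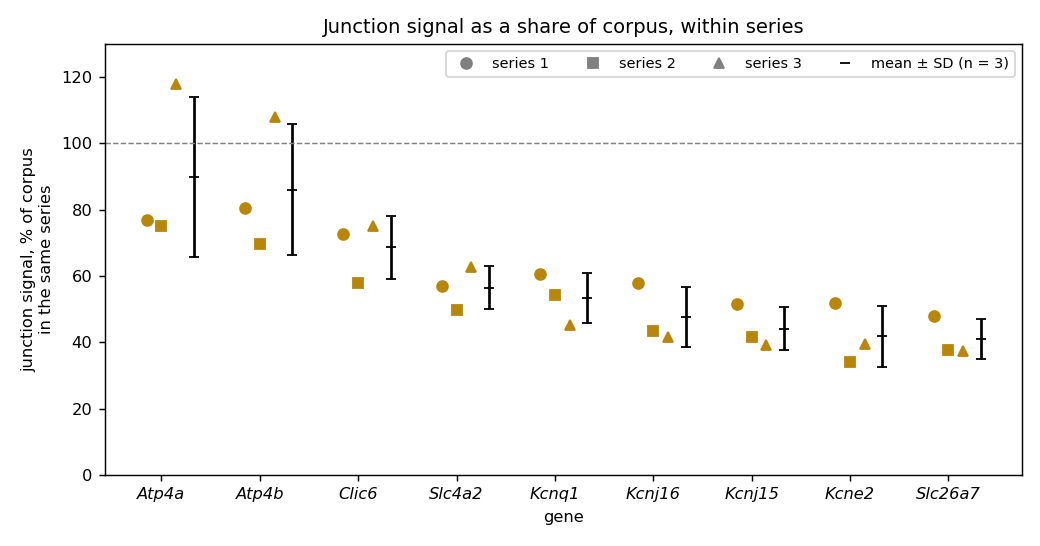
Junction signal as percent of the corpus signal in the same series, for each of the 9 genes. Points are series, and the bar beside them is the mean ± SD (n = 3); the pump subunits average 89.9% and 86.1%, and Slc26a7 41.1%.

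Whether the channels changed more than the pump was examined within each array, as the log2 signal of a gene minus the mean of Atp4a and Atp4b. All 7 genes had every junction array below every corpus array on this measure, as did 6.06% of the 13635 genes tested other than the pump (23.7% without subtracting the pump). Relative to the pump, the log2 difference was -1.06 for both Kcne2 and Slc26a7, -0.97 for Kcnj15 and -0.86 for Kcnj16. It was -0.69 for Kcnq1, -0.61 for Slc4a2 and -0.34 for the brighter probe set of Clic6. The other probe set of Clic6, at -0.81 against the corpus without subtracting the pump, does not enter this value. An exact two-sided permutation test gave p = 0.1 for each of the 7 genes, also after adjustment over the 7 tests. This is the smallest p that this permutation test can give for 3 arrays against 3, so it cannot pass 0.05. All 7 share the same pump values.

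Brightness moved with this result. Among 610 genes at least 4-fold lower in the forestomach than in the corpus, a group formed after the data were seen, the junction signal averaged over series had a median of 68.1% of the corpus. It was 92.9% for the 17 genes with a mean corpus signal of 10000 or more, among them both pump subunits, and 72.4% for the 85 genes between 2000 and 5000, among them Kcne2, Kcnj15 and Slc4a2. Corpus array 3 had 73.3% of the mean signal of corpus arrays 1 and 2 in the brightest 17 genes and 99.1% over all 610. For Atp4a and Atp4b that share was 70.6% and 69.5%. The part of brightness in the difference between pump and channels was not tested. Among the 610 genes, 81.0% had a lower junction share than Atp4a and 75.6% a lower one than Atp4b. The corresponding figures were 7.87% for Slc26a7, 8.36% for Kcne2, 10% for Kcnj15 and 16.4% for Kcnj16.

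**Figure D3:**
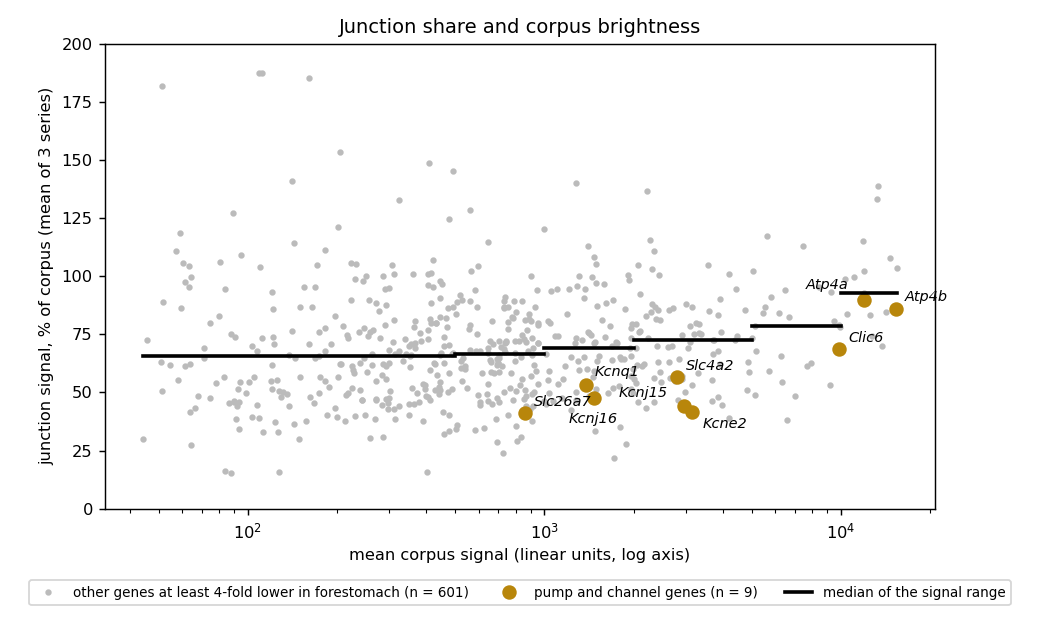
Mean corpus signal (linear units, log axis) against the junction signal as percent of corpus (mean of 3 series) for genes called lower and at least 4-fold lower in the forestomach than in the corpus. Gold points are the 9 pump and channel genes, grey points the other 601, black lines medians within ranges of corpus signal, 13 genes lie above the axis limit of 200%, and the median is 92.9% in the brightest range.

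The forestomach was next set against the corpus, with the same corpus arrays as above. All 9 genes were lower in the forestomach, where the background of genes called lower was 29.4% and of genes called higher 29.3%. The median log2 difference was -5.61 over the 9 and -0.01 over all genes. The signal of Atp4a was 45.6, 376.1 and 644.6 in the forestomach, against 13487.5, 12977.6 and 9336.9 in the corpus (log2 difference -5.61 ± 0.87, adjusted p = 0.00173, 48.9-fold lower). That of Atp4b was 44.4, 395.8 and 770.9 in the forestomach (-5.87 ± 0.93, adjusted p = 0.00190). Forestomach array 1 held far less of both than arrays 2 and 3, as it did of the chief and mucous cell markers given above. The summed signal of the 5 chief cell markers was 121.1, 694.2 and 2269.9 on forestomach arrays 1, 2 and 3, and that of the 5 mucous cell markers 1201.2, 23577.8 and 29894.2. The part of such gland tissue in the pump values was not tested. Without array 1 the log2 difference of Atp4a was -4.55, and without arrays 2 and 3 together, an alternative added after the data were seen in which the lone array is assumed to vary like the corpus arrays, it was -7.73. For Clic6 the corresponding values were -5.65 and -9.46, beside -6.92 ± 1.02 with all arrays (adjusted p = 0.00143), as its forestomach signal was 4, 140.9 and 243.2, the first below the filter level. The other probe set of Clic6, at 48.5, 97.2 and 131.2 in the forestomach against 6768.3, 7162.8 and 5901.4 in the corpus, gave -6.10 ± 0.31 (adjusted p = 1.59e-05 among all probe sets).

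Several channel genes had forestomach signals near or below the filter level. Kcne2 had 9.4, 18.3 and 36.7 in the forestomach, with 2 of these arrays below the filter level, which was 29.0 to 36.5. Its log2 difference was -6.74 ± 0.31 (adjusted p = 8.88e-06), and size and error at such low signals depend on the pseudocount. Kcnj16 was below that level on all 3 forestomach arrays (1.8, 21.7 and 14.8), so its difference of -6.15 ± 0.35 depends on the pseudocount added before taking logs (-7.20 with 1 and -5.13 with the larger pseudocount). Kcnq1 had 14.4, 44.2 and 57.7 (-4.96 ± 0.36, adjusted p = 6.04e-05). Kcnj15 stayed measurable by its brightest probe set, at 85.2, 115.4 and 149.4 (-4.58 ± 0.19, adjusted p = 6.21e-06). Its other 2 probe sets gave -3.30 and -5.14. The one at -5.14 was below the filter level on 2 of 3 forestomach arrays. By the probe sets that stood for the genes, the exchangers showed the smallest differences of the 9. The Kcnj15 probe set at -3.30 lay between Slc26a7 and Slc4a2, so this order depends on the probe set. Slc26a7 had 50.7, 83.2 and 57.3 in the forestomach (-3.59 ± 0.17, adjusted p = 9.53e-06), and its dimmer probe set was below the filter level on all 3 arrays. Slc4a2, which many cell types besides parietal cells use, had 312.2, 337.3 and 359.9, well above the filter level (-3.02 ± 0.11, adjusted p = 4.24e-06). On the 3 forestomach arrays Slc4a2 reached 10.6%, 11.3% and 14.4% of the corpus signal of the same series, whereas Atp4a reached 0.338%, 2.90% and 6.90% and Kcne2 0.265%, 0.634% and 1.23%.

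**Figure D4:**
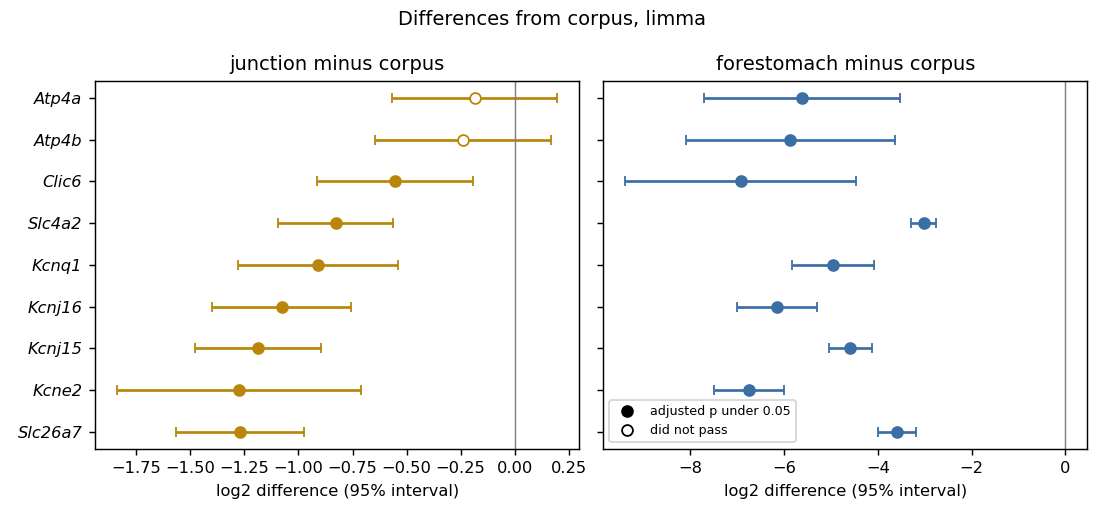
Log2 differences of the 9 genes, junction minus corpus on the left and forestomach minus corpus on the right, with 95% intervals from limma. Filled points passed an adjusted p of 0.05; in the junction Atp4a (-0.19) and Atp4b (-0.24) did not, and in the forestomach all 9 did, from -3.02 for Slc4a2 to -6.92 for the brighter probe set of Clic6 (-6.10 for its other one, beside -6.74 for Kcne2).

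Against the forestomach, the junction was higher for all 9 genes, where 20% of all genes were called higher and 22.2% lower. The median log2 difference was 5.07 over the 9 and -0.04 over all genes. It was 5.43 ± 0.85 for Atp4a, 5.63 ± 0.91 for Atp4b and 6.37 ± 1.01 for Clic6, which had the largest errors. The other probe set of Clic6 gave 5.30 ± 0.31. Kcne2 (5.47 ± 0.36), Kcnj16 (5.07 ± 0.36), Kcnq1 (4.05 ± 0.38) and Kcnj15 (3.40 ± 0.21) followed. By the probe sets that stood for the genes, Slc26a7 (2.32 ± 0.19) and Slc4a2 (2.20 ± 0.10) differed least. The Kcnj15 probe set that gave -3.30 in the forestomach against the corpus differed less than both here, so this order depends on the probe set. Adjusted p lay between 4.28e-05 (Slc4a2) and 0.00328 (Atp4b). This comparison uses the same junction and forestomach arrays as the other 2.

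Genes whose profile was most like that of the pump were sought over the 9 arrays, by Pearson's r to the mean log2 profile of Atp4a and Atp4b. The 5 most alike were Lgals2, a galectin (r = 0.999), Psca, a surface protein of gastric mucosa (r = 0.998), Cblif, the intrinsic factor that binds cobalamin (r = 0.998), the tetraspanin gene Tspan8 (r = 0.997) and the apolipoprotein gene Apoa1 (r = 0.997). These values describe 3 zones of 3 arrays and hold mainly the contrast of forestomach with the rest. Lgals2 read 12609.4, 10846.3 and 12368.6 in the junction, 128.7, 728.8 and 1205.6 in the forestomach and 13289.8, 13097.6 and 9594.6 in the corpus, with the same low forestomach array 1 and low corpus array 3 as the pump. Of the channel group, Clic6 by its brighter probe set was most like the pump (r = 0.999), and Slc26a7 least (r = 0.906).

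Other genes of acid secretion were taken as a list of 31, of which 29 were measured. In the junction against the corpus 12 were lower, 3 higher and 14 did not pass, where 10.7% of all genes were lower and 11.6% higher. The median log2 difference was -0.53. The count of lower genes was 7 without junction array 2 or without series 1, 3 without series 2 and 1 without series 3, and that of higher genes 1 without series 2 or 3. The lowest were the water channel of parietal cells Aqp4 (-1.55 ± 0.28), the somatostatin receptor gene Sstr2 (-1.42 ± 0.35), the nuclear receptor gene Esrrg (-1.13 ± 0.16) and the gastrin receptor gene Cckbr (-0.95 ± 0.14). Aqp4 had 237.5, 111.8 and 135.5 in the junction and 554.9, 379.7 and 491.7 in the corpus. Esrrg, which drives metabolic and ion transport genes of parietal cells in mice, had 1148.4, 821.4 and 877.2 in the junction against 2175.4, 1801.6 and 2251.9 in the corpus. The higher ones were the chloride channel gene Cftr (2.70 ± 0.23, with 2 of 3 corpus arrays below the filter level) and the vesicle traffic genes Rab25 (0.76 ± 0.14) and Rab11a (0.54 ± 0.11).

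Of the same 29 genes, 19 were lower and 4 higher in the forestomach than in the corpus (median -1.16), against 29.4% and 29.3% of all genes. Aqp4 and Cckbr were below the filter level on 3 of 3 forestomach arrays, and Esrrg and Sstr2 on 2, so their sizes depend on the pseudocount. The lowest were Esrrg (-6.14), Aqp4 (-4.84), Cckbr (-3.57) and Sstr2 (-3.12). The 4 higher were Rab25 (1.03), Rab11a (0.91), Snap25 (0.68), a vesicle fusion protein of nerve and endocrine cells, and the prostaglandin receptor gene Ptger3 (0.49). Against the forestomach, the junction had 19 higher and 4 lower (median 0.86), with 2 lower under the series block, without the filter and without several single arrays. Of all genes 20% were higher and 22.2% lower. Cftr was below the filter level on all 3 forestomach arrays. The largest differences were Esrrg (5.01), Aqp4 (3.29), Cftr (3.02) and Cckbr (2.62), and the lowest Ptger3 (-1.14), Snap25 (-1.06), Vamp2 (-0.38) and Rab11a (-0.37). In the short list of 6 parietal markers outside the pump group, 5 were lower in the junction than in the corpus. For that comparison 10.7% of all genes were lower. All 6 markers are also among the 29 genes above, so their calls were already counted there. The sixth marker, the carbonic anhydrase gene Car2, named after its value was seen, had a log2 difference of 0.01 ± 0.14 (adjusted p = 0.952). Car2 was the brightest of the 6, at 13525.4, 13603 and 10303.2 in the corpus, with the third corpus array low as for the pump. The part of brightness in this value was not tested.

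Relatives of the pump and channel genes in the same families were taken as a second list. Of 51 listed, 30 were measured. Slc4a4, Kcnj10 and Kcnj1 were on the first list too, so the calls of Slc4a4 and Kcnj10 enter the counts of both lists. In the junction against the corpus 5 were higher, 4 lower and 21 did not pass (median 0.00), beside 11.6% higher and 10.7% lower of all genes. With the stricter filter or without series 2, 3 were higher, and 2 were lower without corpus array 2 or junction array 3, 1 without series 3 and 0 without series 2. Lower were Kcne1 (-1.24 ± 0.21), whose product is another partner of the Kcnq1 channel, the inward rectifier gene Kcnj13 (-1.02 ± 0.23), the anion exchanger gene Slc26a6 (-0.91 ± 0.16) and the sodium bicarbonate cotransporter gene Slc4a4 (-0.54 ± 0.11). Kcne1 had 93.8, 90.1 and 55.6 in the junction, 1, 2.9 and 2.5 in the forestomach and 219.8, 212.1 and 166.5 in the corpus. All 3 forestomach values lay below the filter level.

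Largest among the relatives higher in the junction was Kcne3 (2.5 ± 0.37), another accessory subunit of Kcnq1 channels. Next came Atp12a, the non-gastric H+/K+-ATPase (2.10 ± 0.32), the chloride intracellular channel family gene Clic3 (1.82 ± 0.14) and Slc4a9 (1.45 ± 0.35). Also called higher, and named after its value was seen, was the sodium pump subunit gene Atp1b3 (1.07 ± 0.12). It had 3271.9, 3389.8 and 4163.9 in the junction and 1591.7, 1765.1 and 1769.7 in the corpus. Kcne3 read 137.3, 152.1 and 125.2 in the junction, 21.7, 42.1 and 25.6 in the forestomach and 28.7, 4 and 23.4 in the corpus. All junction arrays lay above all others. The 3 corpus values and 2 of the 3 forestomach values were below the filter level, so the sizes depend on the pseudocount. Kcne3 was called higher against the forestomach too (1.93 ± 0.20, adjusted p = 5.65e-04). Atp12a read 22.6, 41.4 and 73.2 in the junction and 1.7, 3.4 and 1.4 in the corpus, so its corpus signal lay below the filter level on every array and its junction signal on 1. Slc4a9 was below it on 3 corpus and 2 junction arrays.

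In the forestomach against the corpus 13 relatives were lower and 12 higher (median 0.02), beside 29.4% and 29.3% of all genes. Kcne1 (-4.11), Kcnj13 (-3.73), the sodium pump subunit gene Atp1b1 (-2.69) and Slc26a10 (-2.50) were the lowest, and Clic3 (3.03), Slc4a9 (1.91), Atp12a (1.79) and Atp1b2 (1.54) the highest. In the junction against the forestomach 13 were higher and 8 lower (median 0.39), beside 20% and 22.2% of all genes. Kcne1 and Slc26a10 were below the filter level on 3 forestomach arrays, and Kcnj13 on 2. Kcne1 (2.87), Kcnj13 (2.71), Atp1b1 (2.37) and Kcne3 (1.93) were highest, and Atp1b2 (-1.56), Kcnj8 (-1.30), Kcnq5 (-1.27) and Clic3 (-1.20) lowest. In the forestomach against the corpus, the stricter filter left 6 higher and 8 lower, and without forestomach arrays 2 and 3 there were 7 higher.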

How the data were processed

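Total RNA of 9 arrays (3 each of junction, forestomach and corpus) was measured on Affymetrix mouse arrays. The deposited values are linear intensity signals, 1 per probe set. The submitters' processing notes name MAS5 as the authors' tool, with version and settings not given in the sources used here. The table held 45101 probe sets, of which 64 controls were left out. The platform annotation gave 1 symbol to 34945, several to 932 and none to 9160, and 34741 symbols were updated by Entrez ID to GRCm38.p6 names. A probe set was kept if above the 40th percentile of its array on at least 3 arrays, and among several kept probe sets the one of highest mean log2 value stood for the gene. Values were log2(signal + 9.9), where 9.9 is the typical 20th percentile of an array, so folds of dim genes are understated. Each comparison was fitted with limma 3.58.1 (R 4.3.3) on the 6 arrays of its zones, since forestomach arrays scatter for gland genes, with Benjamini-Hochberg adjustment over 13637 genes and a threshold of 0.05. The script was tested on simulated data. Figures used matplotlib 3.10.9.

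Genes named are all members, up to 4 called genes per list, direction and comparison, and the 5 genes most like the pump. Members, lists and the choice of 6 arrays were made with earlier results of these data known. Arrays of 1 series come from the same mice, so the series number pairs them. Within series, departures from the zone average had r = -0.0286 to 0.123 over 9 pairs (mean 0.0330). Alternatives were a series block, other pseudocounts, filters, normalizations, probe set rules, variance models and leaving out arrays or series.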

Additional observations from a re-analysis of the deposited data

How the results depend on the processing

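All 9 genes were called lower in the forestomach than in the corpus, and higher in the junction than in the forestomach, under every alternative run. For the junction against the corpus, 159 of 180 values kept their side of the threshold and none changed sign. Calls were lost in 19, of which 12 were of Clic6, and gained in 2 (both pump subunits after quantile normalization). The number of genes lower in the junction was 9 with quantile normalization, 5 with 1 fit over 9 arrays, and 2 to 7 when an array or series was left out, with the lowest from series 2 (2) and series 3 (4). With the series as a replicate block, 7 were lower, the same count as without it, and no member's call changed in any comparison. Calls over all genes for the junction against the corpus were 3037, and 718 to 3012 with an array or series left out. For the junction against the forestomach they were 5766, and 3628 to 5107, or 2844 without forestomach arrays 2 and 3 together, a setting added after the data were seen. Fewer arrays enter these fits. Centring each array on its median moved the median of all genes by 0.10 (junction) and 0.11 (forestomach, both against corpus) on the log2 scale. With it Clic6 (-0.45) lost its call in the junction (adjusted p = 0.0519). Slc4a2 relative to the pump was -0.43 with quantile normalization, beside -0.61 without.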
